A study of Mus musculus with 40 samples.

Results

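The regions described here are H3K4me1 peaks that mouse T helper 2 (Th2) cells had and naive CD4 T cells lacked. A peak of the WT Th2 H3K4me1 list on chromosomes 1 to 19 and X was a gained peak when it overlapped no peak of the WT naive list by 1 bp and overlapped a peak of the WT Th2 list of experiment 2 by at least 1 bp. This held for 23796 of the 62456 peaks of the WT Th2 list (38.1%), out of 567930 peaks in the 13 lists of the series. Peaks of the same list that overlapped both the naive list and the experiment 2 list are called kept peaks below, and there were 32622 of them (52.2%). A further 3466 peaks overlapped no naive peak and were not in experiment 2, and 2572 overlapped a naive peak and were not in experiment 2. The members were thus chosen by these 3 H3K4me1 lists, so their presence and absence in those lists is a description and carries no test.

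The study compared CD4+ T cells of mouse spleen of the C57BL/6 background with intact Setdb1 (Setdb1+/+, WT) and with both copies disrupted (Setdb1-/-, KO); SETDB1 is an enzyme that methylates lysine 9 of histone H3. For both Th2 groups, naive cells were stimulated for 3 days with coated anti-CD3epsilon (10 ug/mL) and anti-CD28 (1 ug/mL), in medium holding 50 ng/mL IL-4 and 10 ug/mL of an antibody that neutralizes IFNgamma, and were then kept with 30 IU/mL IL-2 to day 6. The naive WT group was taken at day 0 without culture. The groups used are Th2 Setdb1 KO (3 RNA libraries), Th2 WT (3 RNA libraries) and naive WT (4 RNA libraries), each chromatin measurement being 1 deposited peak list per group. The RNA fit also took in naive Setdb1 KO (3 libraries) and Th2 cells moved to Th1 conditions, WT (2) and Setdb1 KO (3). Those further groups enter the shared estimate of spread behind each SE and p-value and are not compared here. Of Th2 cells with both copies of Suv39h1 disrupted (Suv39h1-/-), also taken at day 6, only the H3K9me3 peak list is used. Neither the cells in which Setdb1 was deleted nor the animals behind each library are given in the sources used here, so that p-values measure the spread between libraries only. Th2 WT and naive WT cells differ in activation, cytokines and days of culture at once, and these cannot be told apart.

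H3K4me1, a single methyl group on lysine 4 of histone H3, is laid down at enhancers and at the flanks of promoters, mostly by the MLL3 and MLL4 enzymes. Enhancers that carry H3K4me1 alone are commonly called primed, and those that also carry H3K27ac, an acetyl mark, and are open to transposase (ATAC-seq) are called active. In Th2 cells, IL-4 acts through STAT6 and GATA3 to switch on the cytokine genes Il4, Il5 and Il13, which lie together with the DNA repair gene Rad50 on chromosome 11; part of Rad50 holds the locus control region of these cytokines.

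The libraries differed in ways that touch the results. RNA libraries held 36.3 to 44.7 M reads in Th2 Setdb1 KO, 10.1 to 13.3 M in Th2 WT and 10.0 to 18.5 M in naive WT. Naive WT libraries 1 and 3 stood apart in the number of genes found after thinning to a common depth, with 21277 and 25556, as did 1 naive Setdb1 KO library with 22210, while all others had 15128 to 18640. Setdb1 itself had 8069.65, 9044 and 8342 normalised reads in the Th2 libraries labelled Setdb1 KO, against 694, 933 and 841 in Th2 WT and 1336, 1366, 1325 and 1214 in naive WT. Its RNA was thus higher in the libraries labelled KO, which goes against the label, although a count over the whole gene does not look at the deleted part alone; the H3K9me3 list held 1700 peaks in Th2 Setdb1 KO and 12222 in Th2 WT. The T cell gene Cd4 stood at 5793 to 6132 in Th2 Setdb1 KO, 8626 to 10749.5 in Th2 WT and 15153 to 17229.7 in naive WT. Of other cell types, the summed level of 11 B cell markers was 769 to 1328 in Th2 Setdb1 KO, 341 to 442 in Th2 WT and 5037 to 6963 in naive WT. Most of that sum was 1 gene, Ighm, at 702 to 1266, 272 to 334 and 4666 to 6785 in the same groups. The other B cell markers summed to 62.4 to 68.5, 68.6 to 107 and 15.1 to 373. Of 9 measured myeloid markers the sum was 63.2 to 85.4, 115 to 151 and 100.005 to 308 in the same groups, with Lyz2 at 0 in Th2 WT. Of 10 CD8 and NK markers it was 5696 to 5718, 11117 to 14388 and 1302 to 1936, and nearly all of it in both Th2 groups was Gzma, a granzyme, looked up after the sums were seen. Gzma alone stood at 5341 to 5521 in Th2 Setdb1 KO, 10953 to 14271 in Th2 WT and 19.2 to 54.3 in naive WT, and the other 9 summed to 198 to 355, 117 to 215 and 1264 to 1917. Of the CD8 and NK markers 5 were at 0 in Th2 WT, Cd8a among them. Of the 7 tested, 6 were lower and 1 higher in Th2 WT than in naive WT, beside 33.1% and 32.8% of all genes tested. The part of other cells in the results below was not tested.

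Short stretches of the genes' starts let the regions be seen as sequence. Among 32619 promoter windows of the RefSeq annotation (GRCm38.p6, the mm10 assembly; 250 bases before to 50 after a gene's start), 956 windows, of 870 genes, overlapped a gained peak. The windows shown belong to genes whose RNA was high in Th2 cells and low in naive cells. They are Il1rl1, the receptor for IL-33 (chr1:40429320-40429619, plus strand); Pparg, a lipid-sensing nuclear receptor (chr6:115362099-115362398, plus strand); Mt2, a metallothionein that binds zinc (chr8:94172368-94172667, plus strand); Cyp11a1, the enzyme that opens steroid synthesis from cholesterol (chr9:58014702-58015001, plus strand); and Gzmb, a cytotoxic protease (chr14:56262285-56262584, minus strand). Capitals mark the letters that the factor AP-1 binds, TGANTCA. They also mark the shorter motif known for GATA3 and its relatives, AGATAA, and that of STAT6 (TTC and GAA set 4 bases apart), each on either strand.
Il1rl1: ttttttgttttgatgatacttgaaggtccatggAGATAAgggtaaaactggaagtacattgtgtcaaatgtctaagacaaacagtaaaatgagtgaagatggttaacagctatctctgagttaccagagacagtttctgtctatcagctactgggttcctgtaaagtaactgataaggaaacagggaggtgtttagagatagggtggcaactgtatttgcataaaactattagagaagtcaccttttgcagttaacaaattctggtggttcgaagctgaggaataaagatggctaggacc
Pparg: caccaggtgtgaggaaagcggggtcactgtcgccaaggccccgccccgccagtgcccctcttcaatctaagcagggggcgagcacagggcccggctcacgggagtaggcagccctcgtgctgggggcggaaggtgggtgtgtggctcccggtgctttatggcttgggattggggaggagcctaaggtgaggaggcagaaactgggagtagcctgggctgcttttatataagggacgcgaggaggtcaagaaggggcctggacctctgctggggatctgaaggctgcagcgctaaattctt
Mt2: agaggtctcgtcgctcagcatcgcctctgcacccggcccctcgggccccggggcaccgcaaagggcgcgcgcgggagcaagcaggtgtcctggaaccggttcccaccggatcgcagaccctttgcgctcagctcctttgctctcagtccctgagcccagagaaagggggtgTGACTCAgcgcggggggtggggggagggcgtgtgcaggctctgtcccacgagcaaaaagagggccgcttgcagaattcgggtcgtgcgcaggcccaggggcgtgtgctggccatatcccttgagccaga
Cyp11a1: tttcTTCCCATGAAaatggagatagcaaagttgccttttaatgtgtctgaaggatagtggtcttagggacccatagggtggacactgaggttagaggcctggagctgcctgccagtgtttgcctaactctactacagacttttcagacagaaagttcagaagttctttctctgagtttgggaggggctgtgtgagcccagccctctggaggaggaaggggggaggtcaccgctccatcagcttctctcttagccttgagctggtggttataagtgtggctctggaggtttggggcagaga
Gzmb: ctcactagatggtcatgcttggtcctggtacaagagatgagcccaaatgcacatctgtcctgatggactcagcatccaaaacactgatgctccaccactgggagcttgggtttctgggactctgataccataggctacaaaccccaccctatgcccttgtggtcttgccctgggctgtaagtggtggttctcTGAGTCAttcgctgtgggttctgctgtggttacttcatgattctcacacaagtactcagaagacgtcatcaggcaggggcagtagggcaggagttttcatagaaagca

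The AP-1 letters stood in the windows of Mt2 and Gzmb, a GATA match stood in that of Il1rl1, a STAT6 match stood in that of Cyp11a1, and the Pparg window held none of these. Over all windows the AP-1 letters were present in 16.2% of those that overlapped a gained peak, in 6.94% of those that overlapped a kept peak and no gained peak, and in 7.85% of all 32619. The GATA letters were present in 15.1%, 8.46% and 11.2% of the same sets, and the STAT6 letters in 7.85%, 5.87% and 6.99%. The letters of 4 further motifs were searched, on both strands. The shorter STAT form TTCNNNGAA was present in 8.16%, 7.58% and 8.34% of the same sets, and the CRE letters TGACGTCA in 1.36%, 2.35% and 1.80%. The E-box letters CACGTG were present in 7.64%, 9.91% and 7.20%, and the NFAT letters GGAAAA in 24.1%, 21.1% and 23.4%. For these 4, the share at gained peaks was close to or below that of all windows. The windows differed in base composition as well: the median number of CG pairs was 6 at gained peaks, 14 at kept peaks and 7 in all windows, and its part in the motif shares was not tested. A match of letters is a description and not a binding site.

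Gained peaks were shorter than kept peaks, with a like median fold enrichment. Their length had a median of 1048 bp and reached 40672 bp, against a median of 1570 bp for kept peaks. The fold enrichment over background that the authors' caller gave had a median of 2.49 for gained peaks and 2.52 for kept peaks. Together the gained peaks covered 36.3 Mb and the kept peaks 84.1 Mb. The nearest naive peak lay at a median of 11882.5 bp, and 826 gained peaks (3.47%) had a naive peak within 1 kb. At the edge of the rule, 92 gained peaks lay within 100 bp of a naive peak, and 292 peaks left out overlapped a naive peak by 100 bp or less. On the other side of the rule, 354 gained peaks overlapped experiment 2 by 100 bp or less, whereas 88.5% were covered by it over at least 50% of their length. The lowest score was 4 in the WT Th2 and naive lists and 10 in the experiment 2 list. The authors' cut may thus have differed between them, though the lists also differ in format and the caller's settings are not given. Experiment 2 was made with another lot of the antibody.

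Gained peaks lay farther from genes than kept peaks. Of gained peaks, 65.6% overlapped a RefSeq gene span, 18.6% lay within 10 kb of one and 15.8% lay farther, against 76.2%, 17.3% and 6.57% of kept peaks. A promoter window was overlapped by 3.67% of gained peaks (95% exact interval 3.43 to 3.92) and by 15.4% of kept peaks (14.98 to 15.8). Intervals here are Clopper-Pearson intervals and cover counting error only. Of gained and kept peaks together, 42.2% were gained over all chromosomes, with the highest shares on chromosomes X (55.4%) and 13 (51.4%) and the lowest on chromosome 17 (32.4%).

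The spacing of members along the genome is a description, with no expected spacing set beside it. Another gained peak lay within 10 kb of 51.3% of them, and the median distance to the nearest was 9453 bp. A kept peak lay within 10 kb of 41.9% of them, at a median distance of 13714 bp. When gained peaks were chained over gaps of up to 10 kb with no naive peak between, 262 chains of 5 or more peaks held 1587 members (6.67%). The largest chains held 15 peaks each: one of 81.8 kb over Ell2, a transcription elongation factor, and one of 94.6 kb over Adk, adenosine kinase. The next were a chain of 14 over Lekr1 and chains of 12 over Syn2, next to Pparg, over Zc3h12c, near Tab2 and over Socs2, an inhibitor of cytokine signalling. In the Socs2 chain (67.3 kb), 7 peaks were open and 6 carried H3K27ac in WT Th2 cells, and all 12 were in the H3K4me1 list of Th2 Setdb1 KO. The longest single gained peak, 40.7 kb (chr5:53391241-53431912), lay 113 kb from Smim20. Adamtsl3 held 2 of the 10 longest, of 31.1 and 22.2 kb, and a peak of 21.0 kb (chr1:130887267-130908220) overlapped Il24 and Il20, cytokine genes of the IL-10 family. All 10 longest peaks overlapped ATAC and H3K27ac peaks of both Th2 Setdb1 KO and Th2 WT.

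Most gained peaks were open in WT Th2 cells and few carried H3K27ac. An ATAC peak of Th2 WT overlapped 66.9% of gained peaks (95% interval 66.3 to 67.5) and 71.2% of kept peaks (70.7 to 71.6). H3K27ac of Th2 WT overlapped 24.9% of gained peaks (24.4 to 25.5) and 66.0% of kept peaks (65.5 to 66.5). Taken as states, 22.7% of gained peaks were open with H3K27ac, 44.2% were open only, 2.24% had H3K27ac only and 30.8% had neither. Among kept peaks these shares were 49.8%, 21.4%, 16.2% and 12.6%. Gained peaks with both were long, with a median of 2251 bp, and those with neither were short, with a median of 639 bp.

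**Figure D1:**
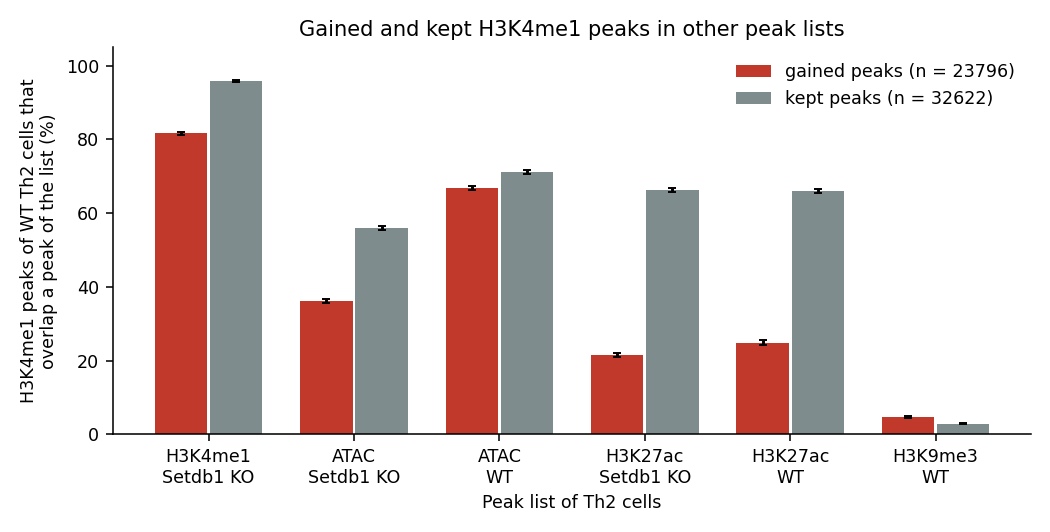
Share of gained (red) and kept (grey) H3K4me1 peaks of WT Th2 cells, in percent, that overlap a peak of each Th2 list by at least 1 bp; bars carry exact 95% intervals of counting error. H3K27ac of Th2 WT was present at 24.9% of gained and 66.0% of kept peaks, and ATAC of Th2 WT at 66.9% and 71.2%.

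The H3K27ac gap was present in every length class. Among peaks of at least 2000 bp, H3K27ac of Th2 WT overlapped 60.7% of 5188 gained peaks and 82.7% of 12777 kept peaks, and among peaks under 500 bp it overlapped 5.42% of 4338 gained and 36.5% of 2635 kept peaks. The ATAC shares crossed: they were 91.0% of gained and 87.6% of kept peaks from 2000 bp up, 77.1% and 68.7% from 1000 to under 2000 bp, and 36.1% and 47.1% under 500 bp. Above 500 bp gained peaks were thus open at least as often as kept peaks of like length.

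**Figure D2:**
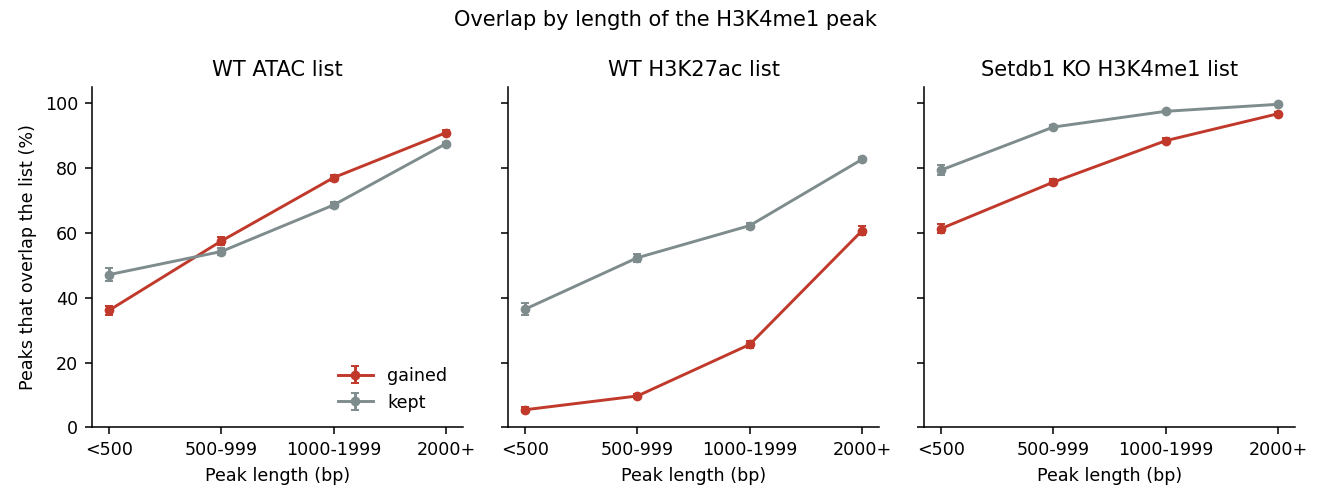
Percent of gained (red) and kept (grey) H3K4me1 peaks that overlap the WT ATAC, WT H3K27ac and Setdb1 KO H3K4me1 lists of Th2 cells, by peak length in bp, with exact 95% intervals. The share rises with length in each list, and the WT H3K27ac share of gained peaks lies below that of kept peaks in all 4 length classes.

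The lists of Th2 cells labelled Setdb1 KO held fewer gained than kept peaks. H3K4me1 of Th2 Setdb1 KO, from experiment 2, overlapped 81.6% of gained peaks (95% interval 81.1 to 82.1) and 95.9% of kept peaks (95.7 to 96.1). That list held 97020 peaks over 121 Mb, against 76251 peaks over 124 Mb in the WT list of experiment 2, of which 79.0% were in the KO list. The 4372 gained peaks absent from the KO list had a median length of 612 bp, and the 19424 present had a median of 1199 bp. H3K27ac of Th2 Setdb1 KO overlapped 21.5% of gained peaks, against 24.9% for the WT list; when each list was limited to peaks at or above its median score the order turned round, to 9.08% in KO and 7.68% in WT. Of gained peaks with H3K27ac in WT, 62.1% had it in KO, against 88.6% of kept peaks and 77.9% of the whole WT list. ATAC of Th2 Setdb1 KO overlapped 36.1% of gained peaks and 55.9% of kept peaks. Of gained peaks open in WT, 52.9% were open in KO (52.1 to 53.7), against 76.4% of kept peaks (75.8 to 76.9) and 56.6% of the whole WT ATAC list. The KO ATAC list was the shorter one, with 58480 peaks over 20.7 Mb against 92071 over 33.5 Mb in WT, and with 1 list per genotype a change at a given region could not be tested.

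H3K9me3, the mark that SETDB1 writes and that goes with silent chromatin, overlapped 1106 gained peaks in Th2 WT (4.65%, 95% interval 4.38 to 4.92) and 952 kept peaks (2.92%, 2.74 to 3.11). Gained peaks had the higher share in each length class, with 9.98% against 5.63% from 2000 bp up and 2.31% against 0.607% under 500 bp. Of these 1106 peaks, 137 (12.4%) also overlapped H3K9me3 of naive WT cells, 81.6% were open in Th2 WT and 49.3% carried H3K27ac. In Th2 Setdb1 KO, H3K9me3 overlapped 27 gained peaks (0.113%) and 48 kept peaks (0.147%). Both marks were measured in pools of cells, so that their presence on the same molecule cannot be told.

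RNA was read for genes whose RefSeq span, widened by 10 kb on each side, met a gained peak. Of 17254 genes tested, 16170 (93.7%) were matched to a span and 7946 of these (49.1%) had at least 1 gained peak. In the table of all genes, 65.9% passed an adjusted p of 0.05 between Th2 WT and naive WT, with 32.8% higher and 33.1% lower in Th2 WT (limma on log2 of normalised read counts plus 1, Benjamini-Hochberg over all 17254 genes). Among genes with at least 1 gained peak, 38.8% were higher and 31.2% lower. The shares moved with the number of gained peaks. With kept peaks and no gained peak, 30.6% of 6260 genes rose and 39.0% fell in Th2 WT (median log2 difference -0.22). With 2 to 4 gained peaks 40.5% of 3143 genes were higher and 29.7% lower (median 0.15), and with 10 or more 58.5% of 164 genes were higher and 22.6% lower (median 0.85). The 146 genes with at least 3 gained peaks and no naive H3K4me1 peak within 10 kb held 68 higher and 8 lower (46.6% and 5.48%), with a median of 1.34. Genes were tested when they had at least 10 in 2 libraries of any group. A gene near 0 in naive WT could thus enter through Th2 libraries and hardly be lower, so this balance is a description. Where at least 1 gained peak was open with H3K27ac, 45.9% of 2753 genes were higher, against 35.1% of the 5193 genes whose gained peaks lacked that state. These sets differed in gene length as well, with median spans of 46.1 and 27.5 kb. They were not split by length or by number of gained peaks, so the part of the state was not tested.

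Genes with many peaks were long, with a median span of 292 kb at 10 or more gained peaks and 12.7 kb for genes with kept peaks only. The order held within classes of gene length. In the shortest of 5 classes, 48.2% of 224 genes with 2 to 4 gained peaks were higher in Th2 WT, against 33.6% of 1376 genes with kept peaks only. In the longest class the shares higher were 58.5% at 10 or more, 39.5% at 5 to 9, 28.9% at 2 to 4, 21.3% at 1 and 20.1% with kept peaks only. Genes were assigned by distance, which does not show that a peak acts on them.

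**Figure D3:**
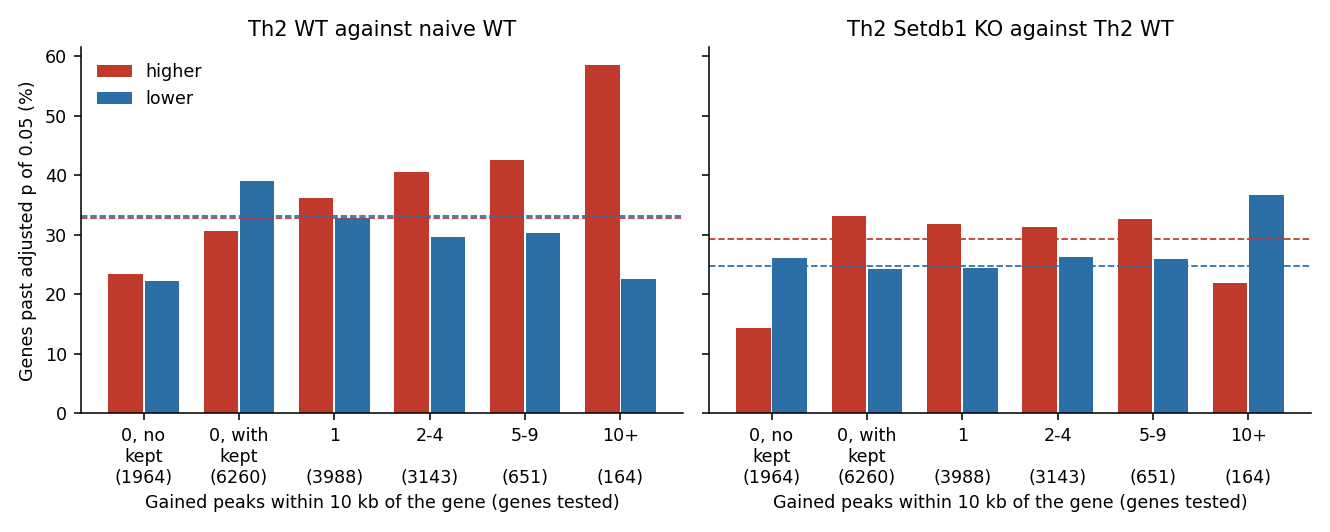
Percent of tested genes higher (red) and lower (blue) at an adjusted p of 0.05, by number of gained peaks within 10 kb, for Th2 WT against naive WT (left) and Th2 Setdb1 KO against Th2 WT (right); dashed lines mark the shares over all 17254 genes in the same colours. The share higher in Th2 WT goes up to 58.5% at 10 or more gained peaks, and the share lower in Th2 Setdb1 KO to 36.6%.

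Pparg, a nuclear receptor that Th2 cells use, had 16 gained peaks within 10 kb and no kept peak, over a span of 130 kb on chromosome 6. Its normalised read counts were 446, 498 and 227 in Th2 Setdb1 KO, 2250.2, 2280.5 and 2789 in Th2 WT, and 7.48, 0, 10.9 and 0 in naive WT. No group overlapped another. The log2 difference was 9.58 ± 0.65 (SE; limma adjusted p = 1.04e-10) for Th2 WT against naive WT and -2.71 ± 0.69 (adjusted p = 0.00262) for Th2 Setdb1 KO against Th2 WT. Both comparisons share the 3 Th2 WT libraries here and below. Of the 16 peaks, 4 overlapped H3K27ac in Th2 Setdb1 KO and 5 in Th2 WT, 3 overlapped ATAC in KO and 6 in WT, and 15 were in the KO H3K4me1 list. The longest, 11.3 kb (chr6:115474087-115485369), carried ATAC and H3K27ac in both genotypes.

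**Figure D4:**
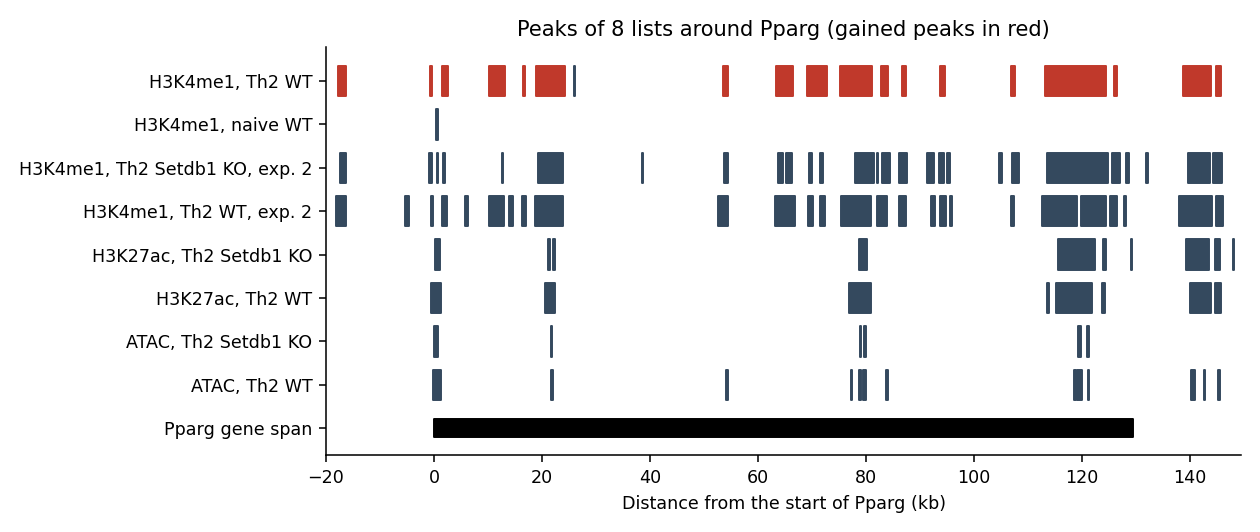
Peaks of 8 lists within 20 kb of the Pparg span, by distance from its start in kb; gained peaks of the WT Th2 H3K4me1 list are red, all other peaks dark, and the gene span is black. The naive list shows 1 peak, near the start, against 19 in the WT Th2 list.

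Il1rl1, which marks Th2 cells that answer IL-33, had 7 gained and 4 kept peaks. It stood at 625, 1031 and 527 in Th2 Setdb1 KO, at 1459.8, 1282 and 1345 in Th2 WT, and at 4.99, 0, 27.2 and 0 in naive WT. It was higher in Th2 WT than in naive WT by 8.56 ± 0.84 on the log2 scale (adjusted p = 2.32e-08), and its difference in KO, -0.96 ± 0.90, did not pass (adjusted p = 0.391). With only the libraries of the 2 groups, Il1rl1 passed as lower in KO (-0.96). Its longest gained peak, 8.55 kb (chr1:40424262-40432810), spans the promoter window shown above and carried ATAC and H3K27ac in both genotypes. Il24 met the 20954 bp peak and 1 other gained peak. It had 2947, 3529 and 2637 reads in Th2 Setdb1 KO, 14923, 14440.1 and 13486 in Th2 WT, and 8.73, 0, 7.24 and 0 in naive WT, with differences of -2.24 ± 0.61 in KO against WT (adjusted p = 0.0044) and 12.22 ± 0.57 in Th2 WT against naive WT (adjusted p = 4.37e-13).

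Gained peaks at the cytokine locus on chromosome 11 differed in number by gene. Of 16170 matched genes tested, 8224 had none, 3988 had 1 and 3143 had 2 to 4. Rad50 met 4, and the widest, 16.4 kb (chr11:53649779-53666223), lay inside its span, was open and carried H3K27ac in both genotypes. Il13 met 1 gained peak, of 3000 bp (chr11:53644368-53647367), shared with Rad50, and Il5 met 2, of 228 and 315 bp. Il4 met none and had 2 kept peaks, which overlap naive peaks. Il13 was at 1166, 1115 and 366 in Th2 Setdb1 KO, at 2256, 2987 and 2437 in Th2 WT and at 0 in all 4 naive WT libraries, which makes it at least 635-fold higher in Th2 WT at a floor of 3 reads per library. Its difference between KO and WT was -1.70 ± 0.37 (adjusted p = 0.000719). Il5 was at 997, 1079.9 and 453 in Th2 Setdb1 KO, 2601, 2563 and 2310.1 in Th2 WT, and 0, 0, 3.62 and 0 in naive WT. The Il5 difference between KO and WT was -1.66 ± 0.50 (adjusted p = 0.00827) and did not pass without Th2 Setdb1 KO library 3 (-1.26). Il4 was at least 486-fold higher in Th2 WT than in naive WT, with 621, 663 and 567 in Th2 Setdb1 KO, 2176, 1759 and 1936 in Th2 WT and 0 in naive WT, without a gained peak. Rad50 itself was higher in Th2 WT by 1.72 ± 0.13 (adjusted p = 4.65e-10).

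The Th2 factors Gata3 and Maf had 1 gained peak each. That of Gata3 was 1269 bp long, beside 6 kept peaks, and the gene had 1883, 2467 and 2371 reads in Th2 Setdb1 KO, 2199.8, 2004 and 2303 in Th2 WT, and 543, 700.0, 558 and 613 in naive WT. It was higher in Th2 WT by 1.85 ± 0.19 (adjusted p = 4.72e-08) and differed by 0.04 ± 0.20 in KO (adjusted p = 0.901). Maf, a factor that drives Il4, had 1 gained peak of 454 bp, with 559.8, 571 and 321 reads in Th2 Setdb1 KO, 2161, 2436 and 2405 in Th2 WT, and 104, 200.01, 208 and 146 in naive WT. The Maf difference was 3.87 ± 0.23 in Th2 WT against naive WT (adjusted p = 1.79e-11) and -2.31 ± 0.25 in KO against WT (adjusted p = 1.95e-07). Il10, an anti-inflammatory cytokine, and Ccr8, a chemokine receptor, had kept peaks only, and were higher in Th2 WT by 11.94 ± 0.48 (adjusted p = 3.69e-14) and 6.18 ± 0.31 (adjusted p = 1.24e-12). Of the Th1 genes, Ifng had no H3K4me1 peak within 10 kb and Tbx21 no gained one. Ifng stood at 114, 74.3 and 59.5 in Th2 Setdb1 KO, 4.03, 7.42 and 9.98 in Th2 WT, and 0, 0, 1.81 and 0 in naive WT, and was higher in KO than in Th2 WT by 3.38 ± 0.69 (adjusted p = 0.000349).

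**Figure D5:**
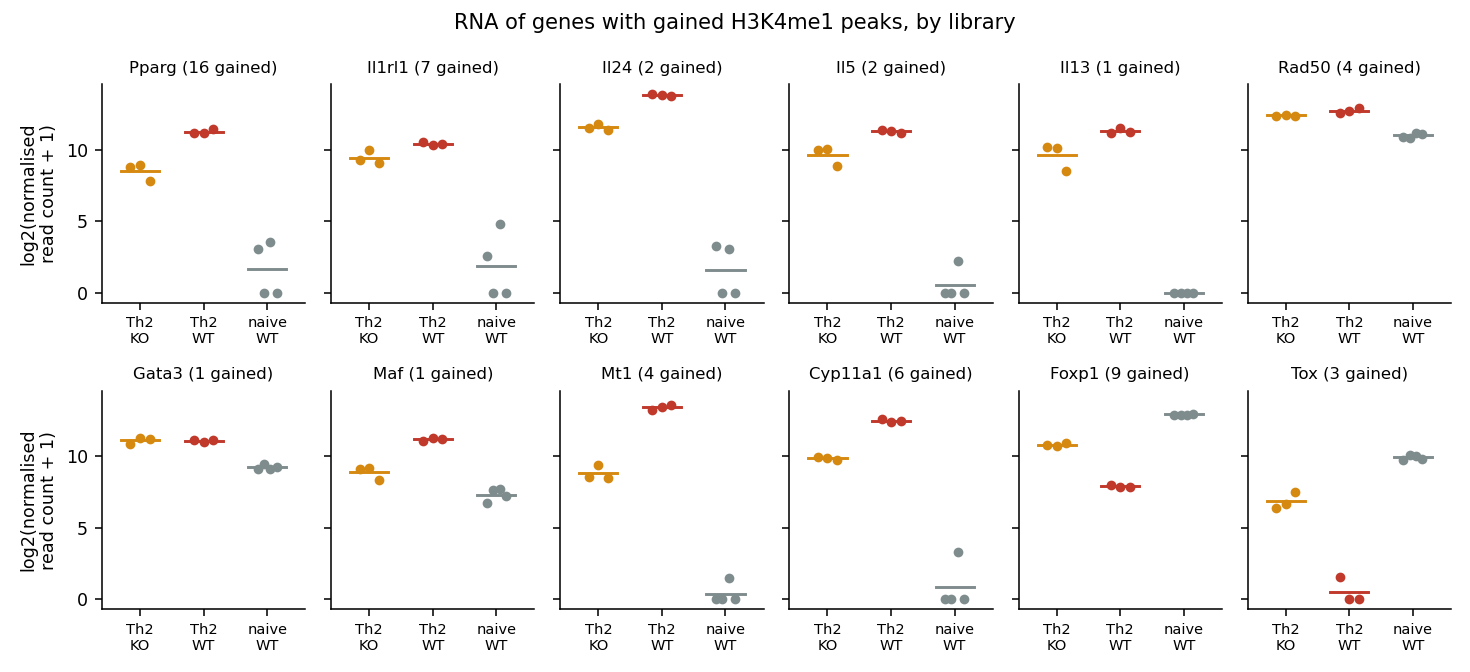
RNA of 12 genes by library, as log2 of the normalised read count plus 1, in Th2 Setdb1 KO (3 libraries), Th2 WT (3) and naive WT (4); points are libraries, lines are means, and the number of gained peaks within 10 kb is given per gene. Th2 WT lies above naive WT for the first 10 genes and below it for Foxp1 and Tox.

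Among genes with at least 3 gained peaks, those with the largest rise in Th2 WT were of several kinds. They were Tnfrsf8, which encodes the activation receptor CD30, Mt1 and Mt2, Gzmb, Emilin2, an extracellular matrix protein, Cyp11a1, Il1r2, a decoy receptor for IL-1, Lilrb4, an inhibitory receptor, Rnf128, a ubiquitin ligase tied to T cell anergy, and Cysltr1, a receptor for leukotrienes. Cyp11a1 (6 gained peaks) stood at 973, 964 and 849 in Th2 Setdb1 KO, 6295, 5357 and 5645 in Th2 WT, and 0, 0, 9.05 and 0 in naive WT. Mt1 (4 gained peaks) stood at 377, 678 and 348 in Th2 Setdb1 KO, 9856, 11122 and 12331 in Th2 WT, and 0, 0, 1.81 and 0 in naive WT. Naive libraries were near 0 for both, and KO lay between naive WT and Th2 WT. A peak was counted for every gene within 10 kb, so neighbouring genes are not separate cases. Mt1 and Mt2 shared their longest gained peak, of 2396 bp. Cyp11a1 shared its longest, of 11871 bp, with Ccdc33, which is named below. The log2 rise of the 10 ran between 11.48 (Cysltr1) and 14.32 (Tnfrsf8), on the scale of counts plus 1. The 10 were chosen for being high in Th2 WT, so that their place against the same Th2 WT libraries in KO is a description, and nothing is read from their number lower in KO (24.7% of all genes tested were lower in KO). In Th2 Setdb1 KO, 8 of the 10 were lower than in Th2 WT, with log2 differences of -5.51 ± 0.79 for Emilin2 (adjusted p = 6.93e-06) and -5.16 ± 0.62 for Il1r2 (adjusted p = 8.11e-07), while Gzmb (-0.77) and Tnfrsf8 (-0.93) did not pass. Tnfrsf8 passed with edgeR (-0.77), DESeq2 (-0.91), and a pseudocount of 5, the replicate number as a block or the libraries of the 2 groups alone (-0.93 each). Gzmb passed without the libraries apart in genes found (-0.77). The calls of Lilrb4 (-1.42) and Rnf128 (-1.60) were lost without Th2 Setdb1 KO library 3, and that of Lilrb4 also without Th2 Setdb1 KO library 1 or any 1 of the Th2 WT libraries (-1.42 to -1.49). Rnf128 had 7 gained peaks, none of them in the H3K4me1 list of Th2 Setdb1 KO, and 1890.5, 1983 and 1105 reads in KO, 5783, 5989.8 and 5887 in Th2 WT, and 0, 0, 1.81 and 4.72 in naive WT.

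Gained peaks also lay at genes whose RNA fell in Th2 WT. The 10 largest falls among genes with at least 3 gained peaks were Tox, Ipcef1, Sntb1, Cd200r3, Wnt5b, Cmah, Dock4, Tbc1d4, Sh2d4b and Foxp1. Foxp1, a factor that holds naive T cells at rest, had 9 gained peaks beside 39 kept ones. It stood at 1797, 1701 and 1924 in Th2 Setdb1 KO, 256, 232 and 229.5 in Th2 WT, and 7680.2, 7732, 7720.4 and 8011 in naive WT, and fell by 5.02 on the log2 scale in Th2 WT (-5.02 ± 0.12, adjusted p = 2.31e-17). Tox, a nuclear factor of T cell development and exhaustion, had 3 gained and 13 kept peaks, with 81.1, 101 and 181 reads in Th2 Setdb1 KO, 2.02, 0 and 0 in Th2 WT, and 847, 1086, 1045 and 915 in naive WT. Of the 9 gained peaks at Foxp1, none carried H3K27ac in Th2 WT and 2 did in Th2 Setdb1 KO. Of the 3 at Tox none did in Th2 WT. Cmah, the enzyme that converts sialic acid to its glycolyl form, had H3K27ac in Th2 WT at 2 of 3. Cd200r3 and Sh2d4b had it at 1 each, and the 7 other genes at none. Over all gained peaks the share with H3K27ac in Th2 WT was 24.9%. Lack of it was not particular to genes that fell. Among the 10 largest rises, Rnf128, Il1r2 and Tnfrsf8 also had it at none. Mt1, Mt2, Gzmb, Emilin2, Cyp11a1, Lilrb4 and Cysltr1 had it at 1 or more.

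The genes with the most gained peaks were long ones. They were Lpp (35), Fhit (33), Arhgap26 (31), Adk (30), Jazf1 (29), Elmo1 (29), Dip2c (28), Nfia (27), Rabgap1l (27) and Bre (26). Of these, 7 were higher and 1 lower in Th2 WT than in naive WT, beside 32.8% and 33.1% of all genes tested. Of the 164 genes with 10 or more gained peaks, 58.5% were higher and 22.6% lower. The Lpp call, higher in Th2 WT, was lost without the 3 libraries apart in genes found (0.39). Rabgap1l had 2539.7, 2824 and 2901 reads in Th2 Setdb1 KO, 9789, 9747 and 10575 in Th2 WT, and 2875, 2458, 2622 and 2758 in naive WT. Adk had 1143, 1178 and 958 reads in Th2 Setdb1 KO, 2329, 2268 and 2263 in Th2 WT, and 646, 734, 864 and 756 in naive WT. In Rabgap1l the KO libraries lay in the range of naive WT or just above it, and in Adk they lay between the other groups. Elmo1, a factor of cell migration, was lower by 0.33 on the log2 scale (-0.33 ± 0.14, adjusted p = 0.0396). The Elmo1 call was lost without Th2 WT library 1 or 2 or naive WT library 2 or 4 (-0.27 to -0.31). It was also lost with no filter on low values (-0.33) and with the replicate number as a block (-0.28).

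Between Th2 Setdb1 KO and Th2 WT, 54% of all genes tested passed, 29.3% higher and 24.7% lower, with a median log2 difference of 0.13 over all genes. The median becomes 0.28 under TMM scaling, a shift of 0.17. Genes with at least 1 gained peak were near this background, with 31.4% higher and 25.5% lower. At 10 or more gained peaks 22.0% of 164 genes were higher and 36.6% lower (median -0.36). Among the 146 genes with at least 3 gained peaks and no naive peak 12.3% were higher and 25.3% lower (median -0.43). These 146 genes could enter the test through Th2 libraries, so their shares are a description. In the shortest of the 5 length classes, 44.2% of 224 with 2 to 4 gained peaks were lower and 15.2% higher, against 31.5% and 22.8% of those with kept peaks only. The balance turned with gene length. Genes with 2 to 4 gained peaks were lower in KO in 28.7% and higher in 21.5% in the second class, 29.1% and 24.7% in the third, 27.9% and 31.8% in the fourth, and 19.3% and 40.0% in the longest. Genes with kept peaks only were lower in 25.7% and higher in 31.7% in the second class, 21.9% and 37.9% in the third, 19.3% and 40.4% in the fourth, and 14.5% and 37.9% in the longest. The Setdb1 reads, which go against the KO label, and the deeper KO libraries stand beside each of these shares.

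The 5 genes with at least 3 gained peaks that fell most in Th2 Setdb1 KO were Cdh17, a cadherin, Prkcdbp, a caveolar protein, Dysf, a membrane repair protein, Ccdc33 and Slc2a3, a glucose transporter. Cdh17 had 9 gained peaks and no kept or naive one, with 21.9, 34.0 and 4.996 reads in Th2 Setdb1 KO, 1424, 1627 and 1681 in Th2 WT, and 6.24, 0, 47.1 and 0 in naive WT. Its gained peaks were in the KO list of H3K4me1 in 8 of 9 cases and in that of H3K27ac in 6 of 9, as in the H3K27ac list of Th2 WT, whereas 3 were open in KO and 6 in WT. Slc2a3 had 6 gained peaks, with 706, 848 and 582 reads in Th2 Setdb1 KO, 35465, 35814 and 42826 in Th2 WT, and 864, 695, 706 and 721 in naive WT. KO libraries thus overlapped the naive WT range. It fell by 5.75 on the log2 scale (-5.75 ± 0.20, adjusted p = 7.22e-14). None of its gained peaks carried H3K27ac in either genotype, and 3 of 6 were in the KO H3K4me1 list. The 5 that rose most were Cacna2d1, a calcium channel subunit, Acoxl, Tcrg-C4, a T cell receptor gamma constant gene, Nlrp1b, an inflammasome sensor, and Tox. Acoxl stood at 122, 118 and 176 in Th2 Setdb1 KO, at 0 in all Th2 WT libraries, and at 96.0, 39.7, 61.6 and 92.6 in naive WT; it was at least 21.8-fold higher in KO than in Th2 WT.

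Gene lists were read for members near gained peaks, beside 49.1% of all matched tested genes. Some lists hold untested genes, and of all matched untested genes 18.8% had a gained peak. Genes with at least 1 gained peak had a median span of 32.2 kb, against 11.6 kb for genes with none. The lists were not matched to other genes in length. For the calls below, 32.8% of all genes tested were higher and 33.1% lower in Th2 WT than in naive WT. In Th2 Setdb1 KO against Th2 WT, 29.3% were higher and 24.7% lower. Counts near or under these shares are not read as a trait of a list. Of 27 matched Th2 genes, 21 had at least 1 gained peak; 25 of 27 were higher and 1 lower in Th2 WT than in naive WT, and 3 were higher and 14 lower in Th2 Setdb1 KO than in Th2 WT. All 8 tested glycolysis genes near a gained peak were higher in Th2 WT and lower in Th2 Setdb1 KO. In KO the call of Hk2, a hexokinase with 2 gained peaks (-1.37 ± 0.52, adjusted p = 0.0324), was lost under TMM scaling (-1.19), with no filter on low values, with a pseudocount of 0.5 and without any 1 of the 6 Th2 libraries (-1.28 to -1.46), which leaves 7 of the 8. They include Slc2a1, another glucose transporter, whose 2 gained peaks were absent from the KO lists of H3K4me1 and ATAC and open in WT. Slc2a1 had 1937, 2501 and 2222 reads in Th2 Setdb1 KO, 10309, 9617 and 11668 in Th2 WT, and 528, 362, 541 and 479.9 in naive WT. All 15 glycolysis genes moved the same ways, with or without a gained peak, or 14 of the 15 in KO under the settings that lost Hk2. Of 10 Th17 genes 9 had a gained peak, with 19 at Rora, a nuclear receptor, which was higher in Th2 WT than in naive WT by 1.91 ± 0.23 and lower in KO than in Th2 WT (-2.56 ± 0.24). Of 26 Th1 genes 12 had one; 15 of the 26 were higher and 8 lower in Th2 WT than in naive WT (8 and 3 of the 12), and 15 were higher and 4 lower in Th2 Setdb1 KO than in Th2 WT. Against the direction of most of the list in Th2 WT, Stat4, which carries IL-12 signals, had 6 and was lower in Th2 WT (-1.14 ± 0.13) and higher in KO (1.67 ± 0.14). Of 18 genes of naive cells and quiescence 8 had one, and 15 of the 18 were lower in Th2 WT; Bach2, a repressor that restrains effector fate, had 10 gained and 31 kept peaks. Of 10 pan CD4 T cell genes 3 had one. Of markers of other cells, 7 of 11 B cell genes, 1 of 9 matched myeloid genes and 5 of 10 CD8 and NK genes had one. Of the 10 tested B cell genes, 6 were lower in Th2 WT than in naive WT and the others did not pass (median log2 difference -2.71). That count depended on the libraries and the method. Without the 3 libraries apart in genes found, 2 were lower and 1 higher. Without naive WT library 3, 4 were lower and 1 higher, and with DESeq2 4 were lower. In Th2 Setdb1 KO against Th2 WT, 2 of the B cell genes were higher and 1 lower. The gene lower in KO was the B cell factor Ebf1, which had 11 gained peaks, with log2 differences of 1.95 (adjusted p = 0.0892) in Th2 WT against naive WT and -5.09 in Th2 Setdb1 KO against Th2 WT (adjusted p = 0.000427). Its difference from naive WT passed without naive WT library 3 (2.51), without the 3 libraries apart in genes found (3.31) and with a pseudocount of 5 (1.58). Its reads were 0.397, 1.79 and 0 in Th2 Setdb1 KO, 46.4, 57.5 and 54.9 in Th2 WT, and 27.4, 4.11, 43.5 and 4.72 in naive WT. Fewer cells of a type and less RNA per cell cannot be told apart in these pools.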

How the data were processed

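RNA was measured in 18 libraries and chromatin as 13 peak lists; the labels' group names were used. Reads were aligned to mm10 and peaks called with a pipeline for which, per the submitters' processing notes, MACS2 2.1.0, DESeq, cutadapt 1.3, TopHat2 2.0.5 and BWA 0.7.10 are on record. For the annotation behind the counts and for the caller's settings, the sources used here give nothing. The RNA table holds normalised count values (a signal, gene counts divided by a size factor per library) as the authors deposited them for 39179 genes, listed in 2 identical copies of which 1 was used. Whole reads came back from 100% of values within a tolerance of 0.01, so edgeR 4.0.16 and DESeq2 1.42.0 were run on those reads as alternatives.

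In the deposited peak lists each peak has a score, a fold ratio over background, and −log10 values of p and q as the authors' caller gave them; the score served in alternatives and the fold in description, and −log10 values were not tested. Several lists carry the word merged in their peak names, so libraries may have been merged before calling, and each group has 1 list, so no peak comparison has a test. The H3K9me3 lists differ in format, and their score scale is not stated.

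Genes with at least 10 in 2 or more libraries were tested with limma 3.58.1 (R 4.3.3) on log2 of the value plus 1, in 1 fit over all groups, with Benjamini-Hochberg adjustment over 17254 genes and a threshold of 0.05. Fold changes on this scale understate the change of low genes. Peaks were overlapped by at least 1 bp on chromosomes 1 to 19 and X. Genes were matched to RefSeq spans, widened by 10 kb, by symbol or, failing that, by a synonym that belonged to 1 RefSeq gene only. Promoter windows of chromosome 18 were not used here. Shares carry exact 95% Clopper-Pearson intervals (scipy 1.17.1). Both the overlap code and the fit were tested on simulated data. Depth ran from 10.0 to 44.7 M reads per library, which limits low genes in the shallower ones.

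Genes named are a set of Th2, Th1 and Setdb1 genes, the 10 with the most gained peaks, and, among genes with at least 3 gained peaks, a mean of at least 50 and groups that did not overlap, the 10 largest rises and falls in Th2 WT and the 5 each way in Th2 Setdb1 KO; up to 4 members per gene list were eligible, of which a few are named. The members and lists were chosen with earlier results of these data known. Libraries given the same replicate number did not deviate together, so numbers were not used to pair them. The level of 1 marker gene is not reported here.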

Additional observations from a re-analysis of the deposited data

Results flagged for a closer look

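Among 80 named genes measured in the 4 naive WT libraries, 13 had 1 library far from the other 3 relative to the range of the group (on log2 of the value plus 1). In 4 of them the other libraries held reads that differed, and chance alone marks about 1 in 20 groups of that kind. The value that stood apart was the highest for Btla (4162 normalised reads), Foxp1 (8011) and Slc2a3 (864), and the lowest for Tbc1d4 (511). In the other 9 the rest of the group was at 0, so that any read stands apart and the chance rate does not apply, with Emilin2 at 19.9, Cyp11a1 at 9.05, Gzmb at 8.73, and Hlx, Il5 and Lilrb4 at 3.62. Ifng, Mt1 and Tnfrsf8 stood at 1.81, which is 1 read. Of these 9 values 8 came from naive WT library 3, the library with 25556 genes found after thinning, and that of Gzmb came from library 1, with 21277. The cause was not tested.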

How the results depend on the processing

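RNA counts near gained peaks stayed within 1.5 times under every alternative tried: genes higher in Th2 WT than in naive WT were 2960 to 3157 without 1 library in turn and 2663 to 3153 under the other settings, against 3085, and genes lower were 2320 to 2572 and 2069 to 2611, against 2478. In Th2 Setdb1 KO against Th2 WT they were 2227 to 2391 and 2326 to 2961 higher, against 2498, and 1850 to 1937 and 1728 to 2249 lower, against 2028. Deviations of same-numbered libraries from their group means had correlations of -0.019 to 0.019, against -0.032 to 0.026 for libraries of different numbers. The labels do not state a pairing, and these values cannot show whether a number stands for a shared animal or culture. With the replicate number as a block, 9305 genes passed in Th2 WT against naive WT and 8884 in Th2 Setdb1 KO against Th2 WT, against 11372 and 9324 without it. With only the libraries of the 2 groups compared, 10427 and 9725 genes passed. On the recovered reads edgeR called 10939 and 9386 genes in these comparisons, and DESeq2 11044 and 9371. No named gene changed direction, and 74 of 84 kept their call in Th2 WT against naive WT and 65 of 84 in Th2 Setdb1 KO against Th2 WT under all alternatives. Leaving out 3 libraries that stood apart in genes detected was chosen after seeing the data.

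Overlap shares depended on the overlap asked for. With at least 50% of the peak covered, the share of gained peaks was 60.9% in KO H3K4me1, 6.19% in KO and 11.2% in WT H3K27ac, 1.58% in KO and 6.17% in WT ATAC, and 1.27% in WT H3K9me3; ATAC peaks are short, so few can cover that much. With only the other list's peaks at or above its median score it was 53.1% in KO H3K4me1, 9.08% in KO and 7.68% in WT H3K27ac, 17.7% in KO and 42.0% in WT ATAC, and 2.88% in WT H3K9me3. For the 11815 gained peaks at or above the median score it was 82.2% in KO H3K4me1, 22.7% in KO and 26.1% in WT H3K27ac, and 37.6% in KO and 67.9% in WT ATAC, and for those with no naive peak within 1 kb it was 67.7% in WT ATAC. Tested genes near a gained peak numbered 5233 within the gene span alone (32.3% lower in Th2 WT), 12505 within 50 kb (36.3% higher, 32.7% lower) and 4927 for peaks at or above the median score.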

Other observations

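Gained peaks had an uneven relation to other programmes of the cell. Of 15 cholesterol synthesis genes 11 had a gained peak, and 14 of the 15 were higher in Th2 WT than in naive WT; 4 were higher and 4 lower in Th2 Setdb1 KO than in Th2 WT. Over all genes tested 32.8% were higher in Th2 WT, and 29.3% were higher and 24.7% lower in Th2 Setdb1 KO, so the cholesterol genes were near that background in KO. Of 22 cell cycle genes 13 had one, with 21 higher in Th2 WT and 14 higher in Th2 Setdb1 KO than in Th2 WT. Of 12 regulatory T cell genes 10 had one, of 10 follicular helper genes 6 and of 33 cytokine receptor and STAT genes 18, beside 49.1% of all matched tested genes. Gene length was not matched in these counts.

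H3K9me3 of Th2 cells without Suv39h1, another enzyme that methylates the same lysine, overlapped 17.3% of gained peaks and 16.9% of kept peaks, in a list of 43379 peaks over 77.0 Mb against 12222 over 19.5 Mb in Th2 WT. Of the 1106 gained peaks with H3K9me3 in Th2 WT, 1070 (96.7%) also had it there. On chromosome X, 577 peaks were gained and 465 kept.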
